A study of Mus musculus with 15 samples.

Results

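The 10 genes described here belong to the antioxidant response driven by the transcription factor NRF2. They are its gene Nfe2l2, its inhibitor Keap1, and 8 genes of enzymes that make or recycle glutathione and NADPH or remove peroxides and quinones, namely Gclc, Gclm, Gsr, Srxn1, Prdx1, G6pdx, Cat and Nqo1. They were found by gene symbol, from a list chosen with earlier results of these data known, and the symbols matched 13 of the 28167 RefSeq transcripts, or 10 of the 20101 named genes. Keap1 had 4 transcripts and each of the others had 1. Ribosome profiling, which sequences the mRNA fragments that ribosomes protect from nuclease, was done on whole liver tissue of wild-type male C57BL/6N mice aged 8 to 10 weeks. The mice had lived in 12 h of light and 12 h of dark for 2 weeks and were then moved to constant darkness for 24 h before sampling began. Livers were taken from 2 mice at each of 7 circadian times spaced 4 h apart from CT0 to CT24, with no treatment and no modified allele in any group. The question for these genes is whether ribosomes on them rise and fall over the circadian day.

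NRF2 is made continuously, and in unstressed cells KEAP1 holds it for a CUL3 ubiquitin ligase that marks it for the proteasome. Oxidants and electrophiles modify cysteines of KEAP1, NRF2 then escapes, pairs with a small MAF protein and binds antioxidant response elements in the promoters of its target genes. In the liver, which handles drugs, bile acids and dietary electrophiles, these targets supply glutathione, NADPH and conjugating enzymes.

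The count totals of the 14 libraries ranged from 40593197 to 90458783. The hepatocyte markers Alb, Ttr, Apoa1, Serpina1c and Cyp2e1 summed to 32288 to 46116 CPM (counts scaled to the library size) in every library. CT20 replicate 2 stood apart, with 1717 CPM of 5 pancreatic acinar markers (Cela1, Cpa1, Prss2, Pnlip and Amy2b) against 2.43 to 34.9 CPM in the other libraries, and the highest of those was CT24 replicate 2. Its part in the results was not tested, and values without this library are given beside the called members, G6pdx and the pathway genes whose calls it ends. CT0 replicate 1 had the highest sums of the Kupffer, endothelial, stellate and cholangiocyte marker lists (113, 134, 164 and 24.3 CPM), and without it the rhythm test below gave adjusted p values of 8.84e-05 for Gclc and 0.0265 for Srxn1. Every count above 0 in CT16 replicate 2 was even (100%), whereas 48.9% to 50.4% were even elsewhere. The labels list a further run of this library and place its processed data in the same file, so both runs were taken as 1 sample. Whether its counts were doubled is not given in the sources used here, and halving them changed no edgeR call of a member. For the last pair of mice the sample name reads CT24 and another label CT00, and the name was followed. Levels are given as CPM with library sizes scaled by TMM (trimmed mean of M-values). The plain total count would raise all levels at CT0 by 0.44 and lower those at CT12 by 0.30 on the log2 scale relative to TMM, a swing that alone has a peak-to-trough difference of 0.46 near CT22.4. Changes are therefore given relative to the TMM scale. In bulk tissue, fewer cells of a type and fewer ribosome-protected reads per cell cannot be told apart. The study had no RNA-seq of these livers, so mRNA amount and translation cannot be told apart either.

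The sequence motif that NRF2 binds is shown first, because binding to it is how NRF2 reaches its target genes. The core TGACNNNGC was searched on both strands of the window from 250 bases before to 50 bases after the transcription start (RefSeq, GRCm38.p6). It lay in the windows of 5 of the 8 members found in the promoter table, and in 3781 of all 27025 genes of the table (13.99%), or 4071 of its 32851 windows (12.4%). Gclc and Gsr have no entry. No match lay in the windows of Cat, Keap1 and Nqo1, which says only that these letters are not in those windows. Each line gives the match in capitals with up to 10 bases on each side, read 5′ to 3′ along the strand that spells the core.
Nfe2l2: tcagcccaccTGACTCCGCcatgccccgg
Gclm: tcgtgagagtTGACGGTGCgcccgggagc
Srxn1: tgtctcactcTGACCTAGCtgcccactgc
Prdx1: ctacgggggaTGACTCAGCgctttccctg
G6pdx: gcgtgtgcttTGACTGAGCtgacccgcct
The Nfe2l2 stretch is chr2:75704885-75704913 on the minus strand, and its match begins at base -240 from the start. The Gclm stretch is chr3:122245413-122245441 (minus strand, match from base -134), and the Prdx1 stretch is chr4:116685456-116685484 (minus strand, match from base -133). The Srxn1 stretch is chr2:152105542-152105570 (minus strand, match from base 29, inside the 5′UTR), and the G6pdx stretch is chrX:74428919-74428947 (plus strand, match from base -57). A match is a description of the sequence and not a measured binding site.

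Gclc and Srxn1 were the members whose ribosome-protected reads passed the test for a 24-h rhythm. The samples cover CT0 to CT24 only, so the 24-h period was assumed in the fit and not measured. Gclc had its highest mean at CT4 and its lowest at CT16, and Srxn1 its highest at CT0 and its lowest at CT12, with fitted folds of 2.04 and 1.80 between peak and trough. The test was edgeR's quasi-likelihood F test of a 24-h cosine and sine, with the adjusted p taken over all 17299 transcripts that had a mean of at least 10 counts, as all 13 member transcripts had. It called 2 of 10 members (20.0%), beside 11.3% of all transcripts tested. The median fitted peak-to-trough difference was 0.25 log2 over the 10 members and 0.44 over all transcripts tested. Among genes with a mean of at least 100 counts, as all 10 members had, 15.0% were called and the median difference was 0.36 log2.

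**Figure D1:**
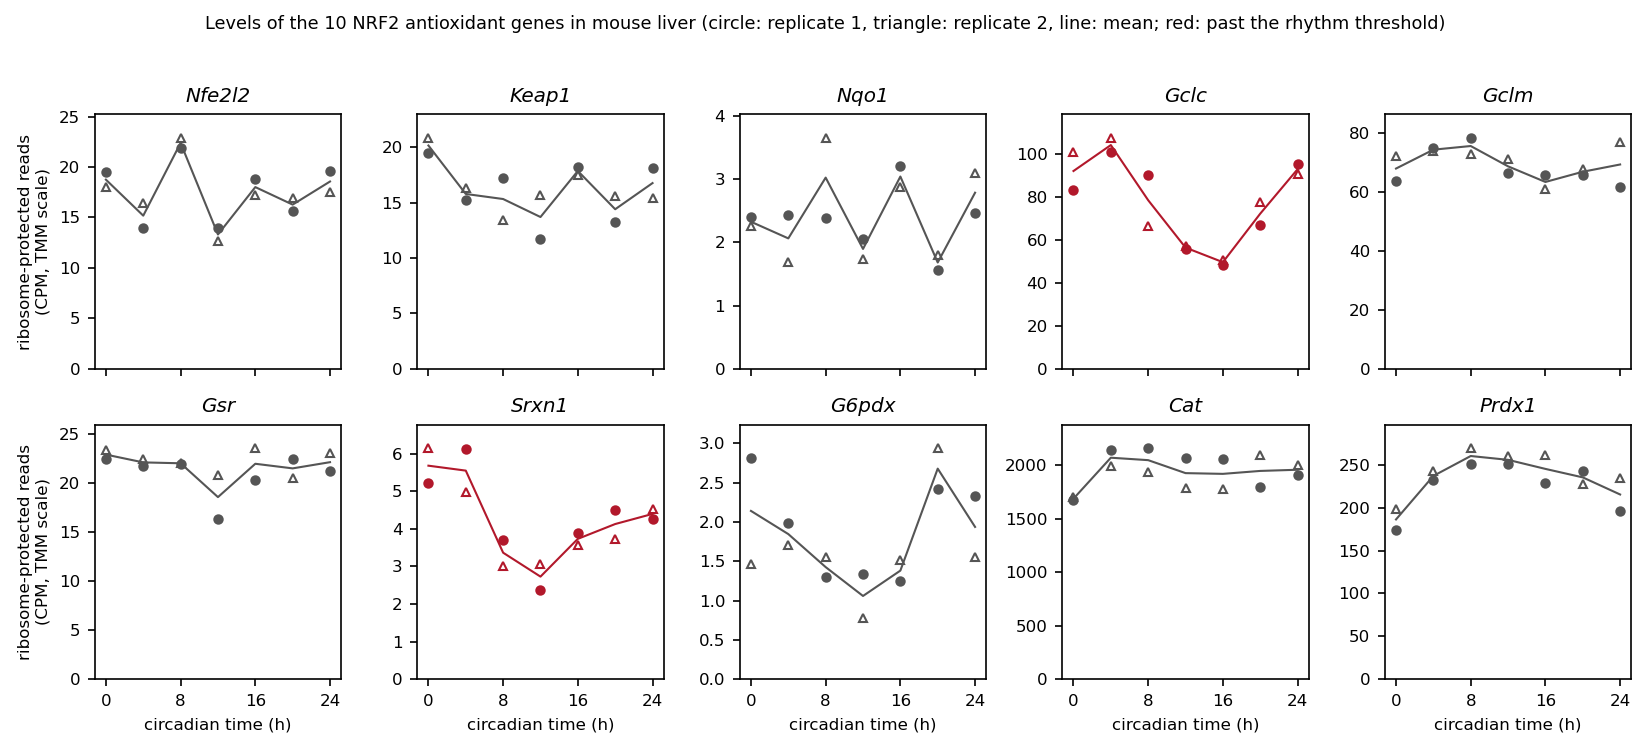
Ribosome-protected reads (y axis, CPM on the TMM scale, from 0) of the 10 genes against circadian time (x axis, h), with a circle for replicate 1, a triangle for replicate 2 and a line through the mean of the 2. Gclc and Srxn1, drawn in red, passed the rhythm threshold and are highest at CT4 and CT0 and lowest at CT16 and CT12, while Cat stays between 1669 and 2160 CPM.

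Gclc encodes the catalytic subunit of glutamate-cysteine ligase, which joins glutamate and cysteine in the rate-limiting step of glutathione synthesis (chromosome 9, bases 77754535 to 77794489, plus strand, 16 exons). Its levels were 83.0 and 101 CPM at CT0, 101 and 107 at CT4, 90.3 and 66.4 at CT8, 55.4 and 57.2 at CT12, 48.3 and 50.8 at CT16, 66.7 and 77.5 at CT20, and 95.1 and 90.5 at CT24. Both libraries of CT0, CT4 and CT24 lay above all libraries of CT12, CT16 and CT20, and only the CT8 pair straddled part of that gap. The mean was 104 ± 4.89 (SD, n = 2) at CT4 and 49.6 ± 1.76 (SD, n = 2) at CT16. The fitted peak was at CT2.78 ± 0.40 h (SE), and the peak-to-trough difference was 1.03 ± 0.10 log2 (SE, edgeR adjusted p = 5.36e-05). Without CT20 replicate 2 the difference was 1.07. The call held in all 28 alternatives, of which the highest adjusted p was 0.00138 (total count).

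The 3 genes whose levels most resembled those of Gclc over the 14 libraries, among 8146 others with a mean of at least 100 counts, were Gm4952 (Pearson r = 0.96), Amt (0.94) and Car3 (0.92). This ranking is a description, since all points share the same libraries. Amt, the aminomethyltransferase of the glycine cleavage system, ran from 10.5 to 24.7 CPM. Car3, a carbonic anhydrase abundant in liver, ran from 753 to 1534 CPM. Gm4952 ran from 20.4 to 58.8 CPM.

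Gclm encodes the modifier subunit that binds GCLC and raises its activity (chromosome 3, bases 122245557 to 122267215, plus strand). Unlike Gclc, it stayed within a narrow band, 63.5 and 72.2 CPM at CT0, 74.7 and 73.9 at CT4, 78.4 and 72.7 at CT8, 66.2 and 71.0 at CT12, 65.6 and 61.1 at CT16, 65.7 and 67.9 at CT20, and 61.5 and 77.0 at CT24. The CT24 pair alone spanned nearly that whole band. Its fitted difference was 0.23 ± 0.08 log2 (SE), a fold of 1.18 with 1.06 to 1.31 at 2 SE on either side, and it did not pass the threshold (edgeR adjusted p = 0.385).

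The ratio of Gclc to Gclm reads in the same library is free of any library scaling, and it describes how the 2 subunits compare over the day. The ratio was 1.31 and 1.40 at CT0, 1.35 and 1.45 at CT4, 1.15 and 0.91 at CT8, 0.84 and 0.81 at CT12, 0.74 and 0.83 at CT16, 1.02 and 1.14 at CT20, and 1.55 and 1.17 at CT24. All 6 libraries of CT0, CT4 and CT24 were above the 8 others. A 24-h cosine of the log2 ratio peaked at CT2.00 ± 0.45 h (SE) with a peak-to-trough difference of 0.89 ± 0.10 (SE), and a two-sided permutation test with 100000 shuffles of the libraries gave p = 3e-05 (n = 14). This pair was chosen after its values had been seen, so the p is given as a description.

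**Figure D2:**
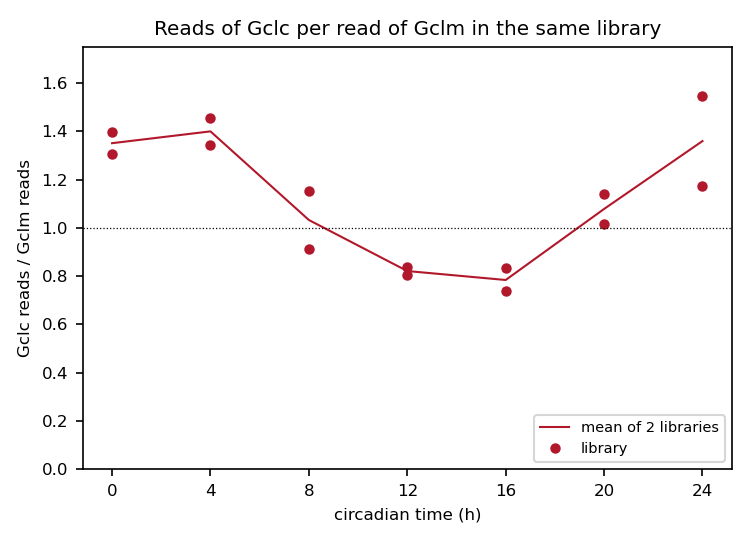
Reads of Gclc divided by reads of Gclm in the same library (y axis, from 0) against circadian time (x axis, h), with a point for each of the 14 libraries, a line through the mean of the 2 at each time and a dotted line at 1. The means run from 1.40 at CT4 to 0.78 at CT16 and return to 1.36 at CT24.

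Gsr, the glutathione reductase that uses NADPH to restore reduced glutathione, varied little, from 16.3 CPM in CT12 replicate 1 through a median of 22.0 to 23.6 in CT16 replicate 2. The other liver of CT12 had 20.8 CPM, inside the range of the remaining times. The fitted difference was 0.17 ± 0.09 log2 (SE, edgeR adjusted p = 0.611), so that 2 SE above it is a fold of 1.28 on the TMM scale. With the total count the difference was 0.63 log2 (adjusted p = 0.166).

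Srxn1 encodes sulfiredoxin, which repairs peroxiredoxins that peroxide has overoxidised (chromosome 2, bases 152105524 to 152111376, plus strand, 2 exons). It had 5.21 and 6.16 CPM at CT0, 6.12 and 4.99 at CT4, 3.71 and 3.02 at CT8, 2.38 and 3.08 at CT12, 3.89 and 3.59 at CT16, 4.52 and 3.74 at CT20, and 4.26 and 4.54 at CT24. All 4 libraries of CT0 and CT4 were above the 10 others. The mean was 5.69 ± 0.67 (SD, n = 2) at CT0 and 2.73 ± 0.49 (SD, n = 2) at CT12. The fitted peak was at CT0.76 ± 0.87 h (SE) and the difference was 0.85 ± 0.17 log2 (SE, edgeR adjusted p = 0.0128). Without CT20 replicate 2 it was 0.86 with an adjusted p of 0.0137. The call held in all 28 alternatives, with adjusted p from 0.00213 to 0.0467. CT24 replicate values lay below those of CT0, and the CT24 minus CT0 difference of -0.37 log2 did not pass the edgeR test (adjusted p = 0.957).

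Prdx1, a peroxiredoxin that reduces hydrogen peroxide and is a substrate of sulfiredoxin, had the opposite shape on the TMM scale without passing the threshold (chromosome 4, bases 116685599 to 116700000, plus strand). It had 174 and 198 CPM at CT0, 232 and 242 at CT4, 251 and 270 at CT8, 251 and 261 at CT12, 229 and 262 at CT16, 243 and 228 at CT20, and 197 and 234 at CT24. Both CT0 libraries lay under every library of CT4 to CT20. The fitted difference was 0.34 ± 0.09 log2 (SE) with a peak at CT11.4 ± 1.14 h (SE, edgeR adjusted p = 0.11). This shape depends on the scaling, because with the total count the difference was 0.16 with a peak at CT19.7 (adjusted p = 0.848).

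G6pdx encodes glucose-6-phosphate dehydrogenase, the entry of the pentose phosphate pathway and a main source of cytosolic NADPH (chromosome X, bases 74409483 to 74428880, minus strand). It was the member with the fewest coding reads, 45 to 162 per library. Its levels were 2.82 and 1.46 CPM at CT0, 1.98 and 1.71 at CT4, 1.30 and 1.55 at CT8, 1.33 and 0.78 at CT12, 1.25 and 1.51 at CT16, 2.41 and 2.94 at CT20, and 2.32 and 1.55 at CT24. Both CT20 libraries were above all libraries of CT4 to CT16, while the pairs at CT0, CT12 and CT24 each differed widely within the time. The fitted fold was 2.01 with a peak at CT22.8 ± 1.20 h (SE), close to the fold of Gclc, but with an SE of 0.28 on a difference of 1.01 log2 it did not pass (edgeR adjusted p = 0.0625). Without CT20 replicate 2, its highest library, the adjusted p was 0.106. Bases 74428129 to 74428179 of its exons are shared with an exon of Ikbkg on the other strand, and whether strand was used in counting is not given in the sources used here. It passed with DESeq2 (0.0279), with a mean of at least 100 counts (0.0412), with the total count (0.018), and without CT0 replicate 2 (0.0309) or CT24 replicate 2 (0.0338).

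Cat encodes catalase, the peroxisomal enzyme that splits hydrogen peroxide into water and oxygen, and had by far the most reads of the members. Its lowest level was 1669 CPM (CT0 replicate 1), its median 1962 and its highest 2160 (CT8 replicate 1). The 2 CT0 libraries, at 1669 and 1702, were the lowest of the 14, and the libraries of all other times overlapped. The fitted difference was 0.13 ± 0.10 log2 (SE, edgeR adjusted p = 0.75), and 2 SE above it is a fold of 1.26.

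Nqo1, a quinone reductase and a much used readout of NRF2 activity, had few reads in these livers, 1.55 CPM at its lowest (CT20 replicate 1), 2.39 at the median and 3.65 at its highest (CT8 replicate 2). The CT8 pair alone, at 2.39 and 3.65, covered most of the upper range. The fitted difference was 0.16 ± 0.32 log2 (SE, edgeR adjusted p = 0.927), so a rhythm of up to 1.73-fold lies within 2 SE.

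The regulators themselves did not pass the cosine test. Nfe2l2 had 19.5 and 18.0 CPM at CT0, 13.95 and 16.4 at CT4, 21.9 and 22.9 at CT8, 13.99 and 12.6 at CT12, 18.8 and 17.2 at CT16, 15.6 and 16.9 at CT20, and 19.6 and 17.5 at CT24. The CT8 pair was above the other 12 libraries, and both CT12 libraries were among the lowest 3, next to CT4 replicate 1. The cosine difference was 0.18 ± 0.20 log2 (SE, edgeR adjusted p = 0.8). Keap1 ran from 11.7 CPM (CT12 replicate 1) through a median of 16.02 to 20.9 (CT0 replicate 2), with a fitted difference of 0.26 ± 0.16 (SE, edgeR adjusted p = 0.511). Its 4 transcripts have the same coding region and differ in the 5′UTR, and their adjusted p values ran from 0.502 to 0.521. A p that misses the threshold does not show that a level is constant, and the upper limits at 2 SE on the TMM scale were folds of 1.48 for Nfe2l2 and 1.50 for Keap1. With the total count the differences were larger, 0.52 log2 for Nfe2l2 (edgeR adjusted p = 0.357) and 0.78 for Keap1 (0.162), as they were for Gclm (0.42), Nqo1 (0.36) and Cat (0.34), and none of these passed.

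An edgeR test of any difference among the 7 times, which assumes no shape, called 2 of 10 members, again Gclc (adjusted p = 0.00347) and Srxn1 (0.0446), beside 7.08% of all transcripts. The Srxn1 call was lost when any library other than CT12 replicate 2, CT20 replicate 1 or CT20 replicate 2 was left out, with an adjusted p of up to 0.138, and also with coding reads only (0.0841) and with the replicate block (0.0546). Nfe2l2, with its high CT8 and low CT12, had an adjusted p of 0.0829, which became 0.0483 with a mean of at least 100 counts and 0.006 with DESeq2. It passed in 2 of 26 alternatives, and in 0 of the 14 that left out 1 library (adjusted p up to 0.242). The ratio of the CT8 to the CT12 mean of Nfe2l2 was 1.68. Keap1, at 0.417, became 0.0240 with the total count and passed in 1 of 26 alternatives. CT24 and CT0, the same phase a day apart, differed in 0 of 17299 transcripts by edgeR (0.0%, with 873 at an unadjusted p under 0.05 and 2 called by DESeq2), and the smallest adjusted p of a member was 0.957. Gclc had 91.9 CPM at CT0 and 92.8 at CT24, and Nfe2l2 had 18.7 and 18.6.

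JTK_CYCLE, the rank test named in the study's methods, on levels scaled by the total count, passed 4 of 10 members at a p under 0.05 adjusted within each transcript, beside 22.2% of all transcripts. By this test's exact null distribution they were Gclc and Srxn1 (both p = 0.00161), G6pdx (0.00481) and Gsr (0.0079), with lags of 2, 0, 23 and 0 h, where lags that fitted equally well were averaged. With TMM scaling Gclc and Srxn1 passed again, G6pdx (0.126) and Gsr (0.402) did not, and Gclm (0.0439) and Prdx1 (0.0079) did. Across transcripts the Benjamini-Hochberg q was 0.0508 for Gclc and Srxn1, so none of the 10 passed on that basis.

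**Figure D3:**
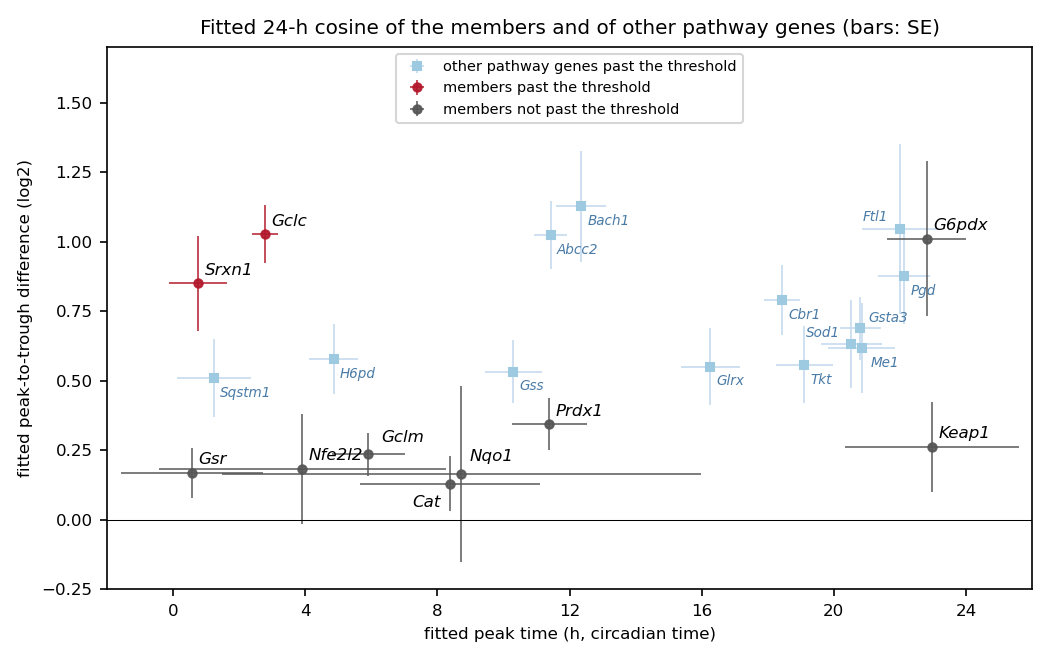
Fitted 24-h cosines, with the peak time (x axis, h of circadian time) and the peak-to-trough difference (y axis, log2) of the 10 members and of the 13 other pathway genes that passed the threshold, with bars of 1 SE on each side. Gclc at 1.03 and Srxn1 at 0.85 lie apart from 7 members at or below 0.34, and G6pdx at 1.01 has a bar of 0.28.

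A wider list of 63 other genes of the pathway held 59 with enough counts, and Ggt1, Gpx2, Nfe2 and Slc7a11 had too few. Of the 59, 13 passed the rhythm threshold (22.0%), beside 11.3% of all transcripts and 15.0% of genes with a mean of at least 100 counts. The fitted peak of 4 fell between CT0 and CT12 and that of 9 between CT12 and CT24. Over all transcripts called the split was 794 and 1153. By role, 4 of 7 NADPH genes passed, 2 of 7 glutathione genes, 2 of 7 superoxide and iron genes, 3 of 18 conjugation and export genes, 2 of 10 regulators and 0 of 10 thioredoxin genes, which had a median fitted difference of 0.19 log2. Over the 28 alternatives the count ran from 8 to 18. It was 8 without CT0 replicate 2 and also without CT12 replicate 2, 10 without CT20 replicate 2, and 18 with DESeq2. Over all transcripts these settings called 1687, 1499, 1849 and 2539, beside 1947 in the main fit. With the total count 10 pathway genes passed, of which 7 were among the 13, beside 1426 of all transcripts.

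Of the NADPH genes, Pgd (6-phosphogluconate dehydrogenase, which follows G6PDX in the pentose phosphate pathway) peaked at CT22.1 with a fold of 1.83 (edgeR adjusted p = 0.00396), within 1 h of the G6pdx estimate. Me1 (malic enzyme) peaked at CT20.8 with a fold of 1.53 (0.0302) and Tkt (transketolase) at CT19.1 with a fold of 1.47 (0.0458). H6pd, the counterpart of G6PDX in the endoplasmic reticulum, peaked at CT4.86 with a fold of 1.49 (0.0204). Without CT20 replicate 2 the difference of Me1 was 0.44 in place of 0.62 log2 (adjusted p = 0.0818). Tkt was lost in 18 of 28 alternatives and Me1 in 7, H6pd in 3 and Pgd in 0.

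Among the regulators, Bach1, a repressor that competes with NRF2 at its response elements, peaked at CT12.3. Its fold was 2.18 (edgeR adjusted p = 0.000983) over a range of 4.67 to 16.2 CPM. Sqstm1, the thirteenth gene by adjusted p, encodes p62, which binds KEAP1, and peaked at CT1.22 with a fold of 1.42 (0.0490), a call lost in 14 of 28 alternatives. The export pump Abcc2, which carries glutathione conjugates into bile, had the smallest adjusted p of the list (5.00e-05), a peak at CT11.4 and a fold of 2.03, with 101 to 263 CPM. With the total count Abcc2 had an adjusted p of 0.136 and Bach1 of 0.0858, with peaks at CT12.2 and CT13.5.

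The other 6 named genes serve glutathione, conjugation, superoxide and iron. Gss (glutathione synthetase, the step after GCLC) peaked at CT10.3 with a fold of 1.45 (edgeR adjusted p = 0.0243), and was lost with the total count (0.996), without CT12 replicate 2 (0.0699) and without the 3 libraries with most acinar reads (0.186). Glrx (glutaredoxin) peaked at CT16.3 with a fold of 1.46 (0.0448) and was lost in 14 of 28 alternatives, CT20 replicate 2 left out among them (0.0600). Without that library the difference of Glrx was 0.56 in place of 0.55 log2. Gsta3 (a glutathione transferase) peaked at CT20.8 with a fold of 1.61, and Cbr1 (a carbonyl reductase) at CT18.4 with a fold of 1.73, both kept in all 28. Sod1 (cytosolic superoxide dismutase) peaked at CT20.5 with a fold of 1.55 and was lost in 1 of 28, without CT8 replicate 2 (0.104). Ftl1 (ferritin light chain) peaked at CT22.0 with a fold of 2.06 and was lost in 8, also without CT20 replicate 2 (0.0565). Its difference without that library was 0.97 in place of 1.04 log2. Gsta3, Ftl1, Prdx1 and Sod1 have close relatives or processed copies in the genome. The study's methods used reads that aligned to 1 place only, so reads shared by identical stretches would be missing from their levels, and whether the deposited counts carry that filter is not given in the sources used here.

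Per kilobase of coding sequence the members spanned 3 orders of magnitude. Coding reads per kilobase and library size (RPKM on the TMM scale, mean ± SD over n = 14 libraries) were 1130 ± 93.8 for Cat, 339 ± 44.8 for Prdx1, 74.3 ± 4.86 for Gclm, 35.2 ± 8.90 for Gclc, 14.2 ± 1.21 for Gsr, 9.29 ± 1.57 for Nfe2l2, 8.19 ± 1.22 for Keap1, 7.48 ± 1.93 for Srxn1, 2.51 ± 0.68 for Nqo1 and 1.07 ± 0.36 for G6pdx. Cat ranked 39 of 11621 genes by this measure, and G6pdx ranked 7825. The order and the comparisons of neighbours rest on the same values, so they are given as a description. In 7 of the 9 pairs of neighbours the higher gene was higher in 14 of 14 libraries. Nfe2l2 was above Keap1 in 11 of 14 libraries with a median ratio of 1.12, and Keap1 above Srxn1 in 10 of 14 with a median ratio of 1.17, so these 3 overlap in level. Per coding length, Gclm carried a median of 2.03 times the reads of Gclc, its partner subunit.

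Reads in the 5′UTR were a larger share for some members than for others. Over the 14 libraries together the 5′UTR held 13.3% of the reads of Nqo1, 12.5% of Gclc, 12.2% of Prdx1, 11.1% of Gclm, 6.73% of Cat, 5.67% of G6pdx, 5.38% of Keap1 and 4.54% of Nfe2l2, but 0.71% of Srxn1 and 0.29% of Gsr. The median over 11621 genes was 3.64%. For Nqo1 the share ran from 1.43% to 26.8% over the libraries with a median of 9.76%, below the medians of Gclc (12.5%), Prdx1 (12.3%) and Gclm (11.1%), so these 4 have no fixed order. Per nucleotide, the 5′UTR of Gclc was as densely read as its coding region (a ratio of 1.01), as were those of Cat (1.00), Prdx1 (1.14) and Nqo1 (0.96), whereas the ratio was 0.37 for Nfe2l2, 0.24 for Gclm and 0.01 for Gsr. Bases 116685645 to 116685660 of the Prdx1 exons lie within the span of its 5′UTR and are shared with an exon of AV051173 on the other strand. A rhythm in the log2 ratio of 5′UTR to coding reads was tested with limma in the 7 members with a mean of at least 10 reads in both regions, and 0 of 7 passed (adjusted p from 0.815 to 0.975). Over all 7640 transcripts tested 0 passed (0.0%), with 377 at an unadjusted p under 0.05. The shares differed widely within pairs, for example 18.3% and 2.80% for Prdx1 in the 2 livers of CT16.

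An upstream open reading frame, here a start codon whose frame also closes within the 5′UTR, was present in 39.6% of 15049 genes whose annotated lengths matched the files. Gclc had 1 of 36 nt that begins at base 17 of its 5′UTR, and Gsr had 1 of 99 nt. The Keap1 transcript described here has an unspliced 5′UTR of 1623 nt with 13 such frames, while another of its transcripts with 304 nt has 0. The Keap1 transcripts share their coding reads, so the choice by highest mean count favours the longest 5′UTR. The transcript with 587 nt and 1 such frame counted 648 5′UTR reads, beside 733 for the described one. Which of them the liver uses was not tested. Cat, Gclm, Nqo1, Prdx1 and Srxn1 had none. For Nfe2l2 and G6pdx the annotated lengths differ from those of the files, and the annotated 5′UTR holds 1 such frame of 177 nt in Nfe2l2 and 0 in G6pdx.

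Srxn1 was also the member with an unusual share of reads after its stop codon. Its 3′UTR of 2184 nt held 547 of 3508 reads (15.6%), with a lowest share of 7.92% (CT16 replicate 1) and a highest of 34.9% (CT20 replicate 1), while the share over the 14 libraries together was at most 0.43% in each of the other members, and at most 1.07% in any single library. The median over 11621 genes was 0.18%, and 98.5% of them lay below Srxn1. No exon of another gene in the annotation overlaps its exons. With coding reads alone, the Srxn1 rhythm had a difference of 0.76 log2 and an edgeR adjusted p of 0.0432.

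**Figure D4:**
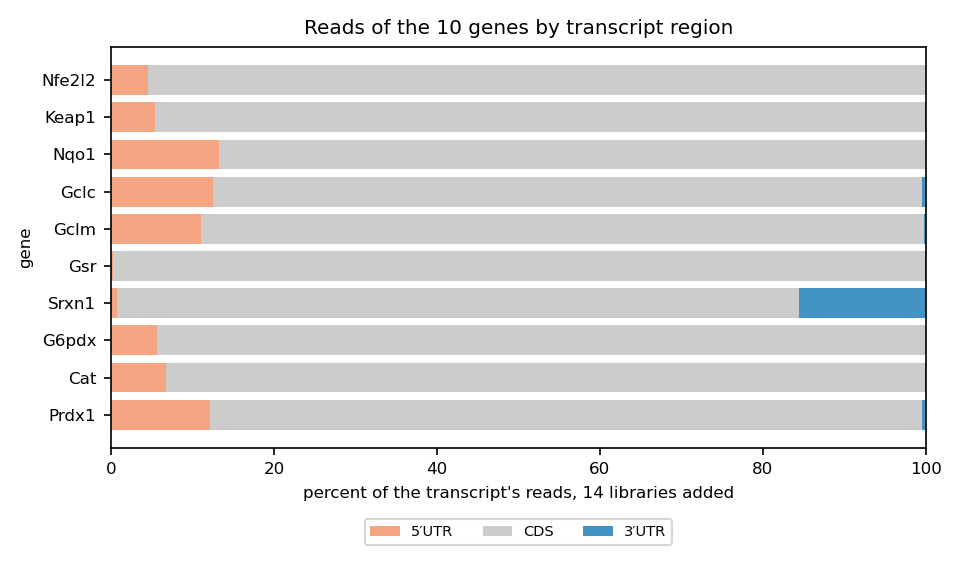
Share of each gene's reads (x axis, percent, 14 libraries added) that fell before, in and after the coding sequence (CDS), with 1 bar per gene. The coding region takes most reads of all 10, the pooled 5′UTR shares of Nqo1, Gclc, Prdx1 and Gclm lie between 11.1% and 13.3%, and Srxn1 has 15.6% of its reads in the 3′UTR.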

How the data were processed

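Ribosome-protected fragments of 14 livers were measured, 2 for each of 7 circadian times. The authors deposited raw counts of reads before, within and after the coding sequence of each RefSeq transcript, without normalization and with region lengths, on build mm10. The submitters' processing notes name FastQC, Bowtie2 2.1.0.0 and SAMtools 0.1.19.0. Per the study's methods, adapters were clipped, rRNA reads removed, exact matches at 1 place in the genome kept and reads placed by their A site, and which of these filters the counts carry is not given in the sources used here. Groups follow the circadian time in the sample names. Every fit ran over the whole table, and only the genes of interest are printed.

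Counts of the 3 regions were added. Rhythms (period 24 h) and differences among times were tested in R 4.3.3 with edgeR 4.0.16 (quasi-likelihood F test after TMM scaling, Benjamini-Hochberg adjustment, threshold 0.05) on 17299 transcripts whose mean count reached 10. Standard errors of phase and difference come from a least-squares cosine fit to log2 CPM and rest on 2 mice per time. JTK_CYCLE was rewritten in Python 3.11 with lags every 2 h and equally good lags averaged. The ratio of 5′UTR to coding reads (pseudocount 0.5) was tested with limma 3.58.1. DESeq2 1.42.0 served as an alternative. The main edgeR tests, the DESeq2 cosine, the limma ratio and JTK_CYCLE were also run on simulated data with 200 changed transcripts. Transcript models, uORFs and promoter windows came from RefSeq on GRCm38.p6 (mm10), and figures were drawn with matplotlib 3.10.9.

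All 10 members are named, each by its transcript with the highest mean count. Of the other pathway genes past the threshold the 12 with the smallest adjusted p are named, plus Sqstm1, the only other one, added after its value was seen. For the member with the smallest adjusted p, the 3 genes of most similar pattern are named. The members and lists were chosen with earlier results of these data known. The marker lists for Kupffer, endothelial, stellate and cholangiocyte cells summed to 60.5 to 113, 86.3 to 134, 105 to 164 and 11.0 to 24.3 CPM over the libraries, and the 4 erythroid markers in the table to 22.0 to 44.2 CPM. Alternatives were other scalings (upper quartile, DESeq2 size factors, total count, no transcripts whose symbol is Mup and a digit), count minimums of 1 and 100, coding reads only, 1 transcript per gene, halved counts of CT16 replicate 2, the replicate number as a block, robust estimation, both CT24 libraries or each library left out and, added after seeing the data, the 3 libraries with most acinar reads left out and tied JTK_CYCLE templates.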

Additional observations from a re-analysis of the deposited data

How the results depend on the processing

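The counts of called members kept within 1.5 times their main value for the 24-h rhythm (2 of 10 members, 2 or 3 in all 28 alternatives), for CT24 against CT0 (0 of 10 in all 25, smallest adjusted p of a member 0.634 to 1.0) and for the ratio of 5′UTR to coding reads (0 in all 19). For the difference among the 7 times, 1 member in place of 2 was called with coding reads only and with the replicate block, and between 1 and 2 with each library left out in turn. In each of these Srxn1 was the gene lost. JTK_CYCLE called 4 members, 0 with q taken across transcripts and 2 when q was also limited to a mean of at least 100 counts. The cosine of the log2 ratio of Gclc to Gclm had a permutation p of 6e-05 with coding reads only and of 3e-05 to 0.00019 with each library left out. As this pair was chosen after its values had been seen, these p values are a description. Over all transcripts, the 24-h rhythm test called 1947 transcripts and 1245 with 1 transcript per gene, where fewer are tested. The test of the 7 times called 1225, and 2198 with the total count, 2219 with DESeq2 and 744 with 1 transcript per gene. JTK_CYCLE called 3840, and 384 with q across transcripts and 467 with the higher minimum. The cause of these shifts was not tested. Replicate numbers were not used to pair the mice in the main fits. Differences between replicates 1 and 2 correlated over 0.1 in 3 of 21 pairs of times (median r = 0.03, highest 0.30). The replicate block changed no call of a member other than that of Srxn1 among the 7 times (adjusted p = 0.0546). G6pdx, Nqo1 and Srxn1 had the fewest reads of the members (means of 104.5, 144.9 and 250.6 per library). With 2 mice per time the spread within a time is poorly known.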
